A study of Mus musculus with 6 samples.

Results

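Cabozantinib (XL184) is a small-molecule inhibitor of receptor tyrosine kinases, and the genes of 10 of its target receptors were followed here in primary mouse osteoblasts (PMOs): Met, Kdr (VEGFR2), Ret, Axl, Tyro3, Mertk, Kit, Flt3, Tek (Tie2) and Flt4 (VEGFR3). They were chosen as known targets of the drug, not by their values on the arrays, though earlier results of these data were known. They were measured by 13 of the 39429 probes on the array and are 10 of the 20659 genes that could be named. PMOs were isolated from the calvaria of CD1 mice aged 2-5 days, and total RNA labeled with Cy3 was hybridized to 1-color Agilent arrays. There were 2 arrays of undifferentiated PMOs, taken at confluence in plain growth medium, 2 of differentiated PMOs, kept after confluence for 30 days in differentiation medium, and 2 of cabozantinib-treated PMOs, kept for 30 days in differentiation medium that contained the drug. All 3 groups came from the same strain and age, and the labels do not say whether the 2 arrays of a group came from separate cultures, so that p values measure only the spread between these arrays.

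These receptors sit in the cell membrane. Binding of a ligand outside the cell brings receptor molecules together, and the kinase domains inside the cell then phosphorylate each other and recruit adaptor proteins that feed the RAS-MAPK and PI3K-AKT pathways. MET is the receptor of hepatocyte growth factor, KDR and FLT4 are receptors of vascular endothelial growth factors, AXL, TYRO3 and MERTK (the TAM receptors) bind GAS6 and protein S, RET binds ligands of the GDNF family together with a GFRA coreceptor, KIT and FLT3 are receptors of stem cell factor and FLT3 ligand, and TEK is the receptor of angiopoietins. MET and VEGF receptor signaling has been linked to osteoblast function, and the study examined what the inhibitor does to osteoblast differentiation and secretion. Cabozantinib acts on the kinase activity of the proteins, and an array measures only their mRNA.

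The arrays differed in ways that bear on every value below. Between 58.8% and 72.9% of an array's spots were called well above background by the scanner software, with the 2 lowest shares on the cabozantinib arrays, and no spot was saturated. Each signal was divided by the 75th percentile of its array (625 to 1773 arbitrary units) and put on the log2 scale, and this quantity is called the scaled log2 signal. The standard deviation of the log2 difference between the 2 arrays of a group was 0.64 to 0.87. The undifferentiated and differentiated arrays shared a slide and both cabozantinib arrays had a slide of their own, so the slide and the drug cannot be told apart. With cabozantinib the median gene was 0.29 lower than in differentiated PMOs on the scaled log2 signal, and 0.08 lower after quantile normalization. When all genes were put in 4 equal classes by mean signal, this median was -1.23 in the dimmest class, where 82.3% of the genes were lower, and -0.58, -0.05 and -0.12 in the other 3 from dim to bright. Flt3, Flt4 and Kit lay in the dimmest class, Mertk, Met and Ret in the next, Kdr and Tyro3 in the one after and Axl in the brightest.

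The calvarial label was checked against osteoblast markers. Of 10 markers on the array, 8 were well above background on all 6 arrays, among them Col1a1, Col1a2, Alpl and Ibsp. The lineage factors Runx2 and Sp7 were well above background on 3 and 4 arrays, and Runx2 on neither differentiated array.

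Most of these receptors could be detected in PMOs. Met, Kdr, Ret, Axl, Tyro3 and Mertk had a probe well above background on all 6 arrays, Kit, Flt3 and Flt4 on 1 to 5 arrays, and Tek on none. This is 6 of 10 receptors on all arrays, beside 62.4% of all named genes and 34 of 48 other receptor tyrosine kinases. Of the other kinases, 6 were detected on some arrays and 8 on none. By group, 7 receptors were well above background in both samples of undifferentiated, 8 in both of differentiated and 7 in both of cabozantinib-treated PMOs.

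The region 250 bases upstream of the annotated start was taken from RefSeq (GRCm38.p6) for 9 of the 10 receptors. 4 of them are shown, Axl and Flt4 because they hold a change described below, and Met and Kdr because they are the receptors the drug is mostly named for. They run 5′ to 3′ on the strand of the gene, and capitals mark the GC box GGGCGG on either strand (CCGCCC on the other strand).
Axl, chr7:25788734-25788983, minus strand: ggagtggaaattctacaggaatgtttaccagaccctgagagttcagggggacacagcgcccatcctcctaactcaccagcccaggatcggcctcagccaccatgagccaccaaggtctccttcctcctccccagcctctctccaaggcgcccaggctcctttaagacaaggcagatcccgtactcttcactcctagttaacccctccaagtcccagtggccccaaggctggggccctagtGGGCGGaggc
Flt4, chr11:49609429-49609678, plus strand: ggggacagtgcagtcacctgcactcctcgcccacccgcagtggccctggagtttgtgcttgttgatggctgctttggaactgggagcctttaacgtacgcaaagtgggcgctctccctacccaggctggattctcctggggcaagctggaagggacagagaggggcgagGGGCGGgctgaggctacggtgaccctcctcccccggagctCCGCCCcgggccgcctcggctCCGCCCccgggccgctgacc
Kdr, chr5:75978456-75978705, minus strand: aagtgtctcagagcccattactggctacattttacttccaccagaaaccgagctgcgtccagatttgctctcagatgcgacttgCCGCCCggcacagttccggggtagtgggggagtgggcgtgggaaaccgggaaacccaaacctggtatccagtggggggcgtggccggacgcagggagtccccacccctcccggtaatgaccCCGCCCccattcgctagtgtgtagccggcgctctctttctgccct
Met, chr6:17463707-17463956, plus strand: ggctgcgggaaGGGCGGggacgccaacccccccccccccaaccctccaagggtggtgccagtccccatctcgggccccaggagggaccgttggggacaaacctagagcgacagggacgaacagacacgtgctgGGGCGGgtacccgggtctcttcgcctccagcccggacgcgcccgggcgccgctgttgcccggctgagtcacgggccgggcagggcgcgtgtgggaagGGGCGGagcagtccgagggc
GGGCGG was found in 7 of the 9 upstream regions, and in 32.7% of 32841 mouse upstream regions of the same length. TATAAA, the core of the TATA box, was found on either strand in none of the 9 and in 12.4% of all. The region of Met had 24 CG dinucleotides, that of Kdr 16, that of Flt4 16 and that of Axl 5, against a median of 6 over all regions. These letters describe the sequence and say nothing on which factors bind there. Kit and Kdr are neighbors on mouse chromosome 5, next to the PDGF receptor gene Pdgfra.

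Met was measured by 1 probe that was printed at 10 spots. Its scaled log2 signal was -3.30 and -3.56 in undifferentiated, -3.57 and -3.34 in differentiated, and -4.20 and -4.05 in cabozantinib-treated PMOs. Both cabozantinib arrays were below the other 4, which overlapped with each other. The log2 fold change was -0.03 (95% interval -1.12 to 1.06, adjusted p = 0.994) from undifferentiated to differentiated PMOs and -0.67 (-1.76 to 0.42, adjusted p = 0.499) with cabozantinib relative to differentiated PMOs, so that neither passed the threshold. After quantile normalization the latter was -0.06.

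The 10 spots of the Met probe did not give the same answer. At 7 spots the signal with cabozantinib was lower than in differentiated PMOs, with a median log2 difference of -1.23, and at the other 3 it was higher, with a median of 0.38. In differentiated PMOs the 7 spots read 118 to 140 on array 1 and 82.0 to 124 on array 2, against 65.3 to 83.8 and 55.1 to 65.2 in cabozantinib-treated PMOs. In differentiated PMOs the 3 spots read 37.9 to 44.1 and 19.6 to 26.2, below all of the 7. In cabozantinib-treated PMOs they read 61.6 to 91.1 and 47.3 to 66.0, a range that overlaps that of the 7. In undifferentiated PMOs the 7 spots read 59.3 to 105 on array 1 and 178 to 224 on array 2. The 3 spots read 14.9 to 45.7 and 52.3 to 98.2 there, again below all of the 7. Undifferentiated and differentiated arrays shared a slide, so the slide and the drug cannot be told apart here either. The 3 spots had the highest row numbers of the 10 (rows 426, 447 and 456). The spots of other 10-spot probes between these rows differed from the median log2 signal of their own probe on the same array by a median of 0.01. This median was taken over all 6 arrays together and cannot show a shift on single arrays or at single spots. Of 248 probes with 10 spots that were well above background on all 6 arrays, 22 (8.87%) had at least 3 spots that ran against the rest. With the median of the spots in place of their mean, an alternative chosen after seeing the data, the log2 fold change of Met with cabozantinib was -1.16, which also did not pass the threshold (adjusted p = 0.188).

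**Figure D1:**
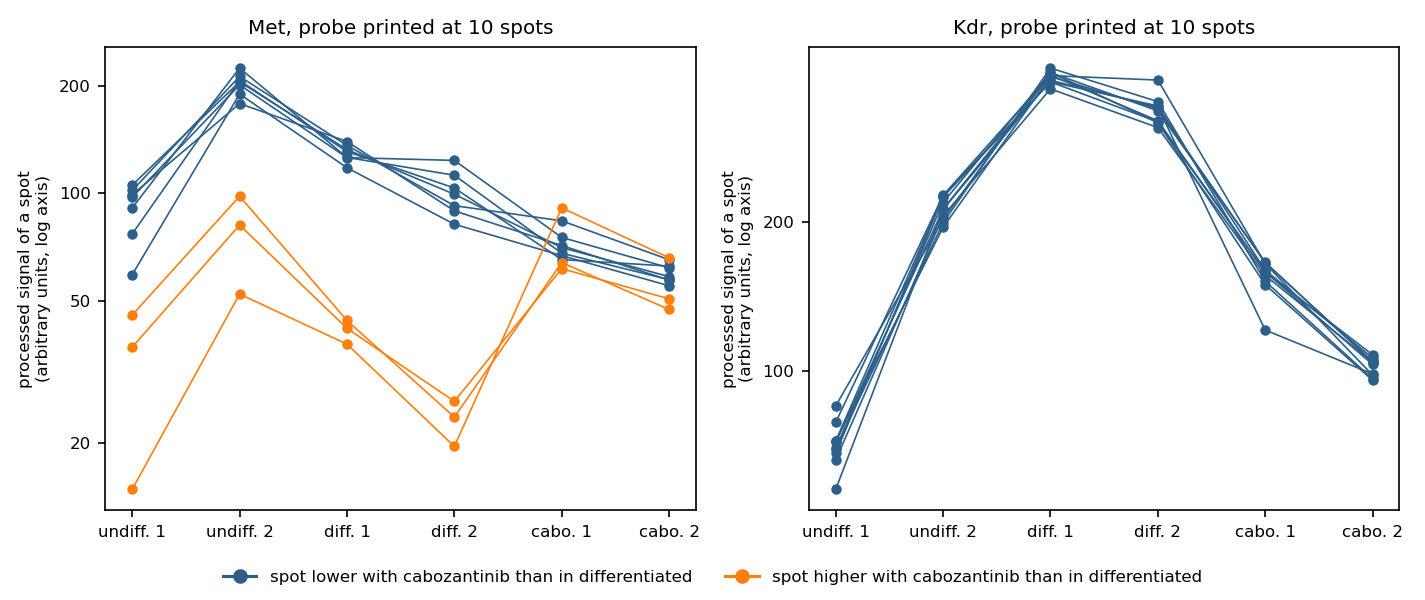
Processed signal (arbitrary units, log axis) at each of the 10 spots of the Met probe (left) and of the dimmer Kdr probe (right) on the 6 arrays, 1 line per spot, not scaled between arrays. 3 of the 10 Met spots rise from the differentiated to the cabozantinib arrays while 7 fall, and all 10 Kdr spots fall.

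Of the VEGF receptors, Flt4 was called lower with cabozantinib than in differentiated PMOs and Kdr was not, with negative values at both of its probes. KDR is the main receptor of VEGFA on endothelial cells. At its brighter probe the scaled log2 signal of Kdr was 0.16 and -0.61 in undifferentiated, -0.40 and 0.11 in differentiated, and -1.02 and -0.73 in cabozantinib-treated PMOs. The cabozantinib arrays were the lowest, and the other groups overlapped. The log2 fold change with cabozantinib was -0.73 (-1.92 to 0.45, adjusted p = 0.492), and that of differentiation was 0.08 (-1.10 to 1.26, adjusted p = 0.981). At its dimmer probe, printed at 10 spots, the scaled log2 signal was -3.14 and -3.06 in undifferentiated, -1.48 and -0.95 in differentiated, and -3.05 and -3.24 in cabozantinib-treated PMOs. The 2 differentiated arrays stood above the other 4 at this probe. It was 1.89 higher on the log2 scale in differentiated than in undifferentiated PMOs (0.78 to 2.99, adjusted p = 0.0396), or 3.70-fold, and every spot was higher, by 1.74 to 2.14. With cabozantinib it was -1.93 relative to differentiated PMOs (-3.04 to -0.82, adjusted p = 0.0606), at 10 of 10 spots by -2.13 to -1.81, and it did not pass the threshold. Cabozantinib-treated and undifferentiated PMOs differed by -0.04 (-1.15 to 1.07, adjusted p = 0.972). Both comparisons use the same differentiated arrays. The 10 spots are copies of the same probe on the same arrays and are not replicates of a condition. Only the dimmer probe of Kdr was thus called with differentiation, and the intervals of the probes overlap. Which transcripts each probe detects was not tested.

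FLT4 is the receptor of VEGFC and VEGFD and is known from lymphatic endothelium. Flt4 was well above background on all 4 arrays without the drug and on neither cabozantinib array. Its scaled log2 signal was -4.27 and -5.21 in undifferentiated, -5.16 and -4.40 in differentiated, and -7.39 and -7.13 in cabozantinib-treated PMOs. The undifferentiated and differentiated arrays overlapped and both cabozantinib arrays were below them. Since the signal with cabozantinib was not well above background, only a bound can be given, and Flt4 was at least 1.62-fold lower in cabozantinib-treated than in differentiated PMOs (adjusted p = 0.0498) and at least 1.66-fold lower than in undifferentiated PMOs (adjusted p = 0.0203). On the linear scale its signals were 30.5 and 30.7 in differentiated PMOs and 7.61 and 6.85 with cabozantinib, where the dimmest signals called well above background were 27.7 and 22.4. The measured log2 difference of -2.48 relative to differentiated PMOs stands beside the median of -1.23 in its class of mean signal. The call against differentiated PMOs was lost without either differentiated or either cabozantinib array (adjusted p of 0.056 to 0.549), and with the 75th percentile taken over all spots (0.0529), with no filter on dim probes (0.143), with quantile normalization (0.201), with the authors' log2 values (0.202), with the normexp correction (1) and with the methods' t-test (0.312). The call against undifferentiated PMOs was lost without cabozantinib replicate 1 (0.165) or 2 (0.105), and with no filter on dim probes (0.0579), quantile normalization or the authors' log2 values (0.102 each), the normexp correction (0.619) and the methods' t-test (0.619).

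Endothelial markers were measured beside these receptors. Of 12 markers, 7 were detected well above background in both undifferentiated, 8 in both differentiated and 6 in both cabozantinib-treated samples, and their summed level, in multiples of the 75th percentile, was 3.23 to 6.39, 5.73 to 9.88 and 3.99 to 5.08. Pecam1, Vwf, Esam, Egfl7 and Ramp2 were well above background on all 6 arrays. Cdh5 was so on 5 arrays, Cldn5 on 4, Sox17 on 3, Robo4 on 2 and Emcn on 1. Tie1 and Sox18 were not well above background on any array, nor were the lymphatic markers Prox1, Mmrn1 and Reln. The other lymphatic marker, Lyve1, which macrophages can also express, was well above background on all 6 arrays, and the summed level of the 4 was 0.036 to 0.107. The part of endothelial cells in the Kdr and Flt4 values was not tested. In RNA from whole cultures, fewer cells of a type and less RNA per cell cannot be told apart.

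The TAM receptors differed from each other across the groups. AXL, like its relatives, takes part in the clearance of dying cells and in cell survival. The scaled log2 signal of Axl was 3.36 and 3.78 in undifferentiated, 1.81 and 1.22 in differentiated, and 2.61 and 2.53 in cabozantinib-treated PMOs. No 2 groups overlapped, and the order from high to low was undifferentiated, cabozantinib-treated, differentiated. Axl fell by 2.05 on the log2 scale from undifferentiated to differentiated PMOs (interval -3.19 to -0.92, adjusted p = 0.0307), that is 4.15-fold. The step from differentiated to cabozantinib-treated PMOs was 1.05 (-0.08 to 2.19, adjusted p = 0.254), and that from undifferentiated to cabozantinib-treated PMOs was -1.001 (-2.14 to 0.13, adjusted p = 0.207), and neither passed the threshold. After quantile normalization these 3 values were -2.19 (adjusted p = 0.0533), 1.09 and -1.10. The call for Axl was lost without differentiated replicate 1 (0.0885) or 2 (0.439), undifferentiated replicate 2 (0.0674) or either cabozantinib array (0.0507 each), and with only the arrays compared and the replicate number (0.0507), no filter on dim probes (0.0825), the normexp correction (0.0865), the authors' log2 values (0.0530) and the methods' t-test (0.881). It was kept in 8 of 19 alternatives.

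MERTK is the TAM receptor by which macrophages engulf dying cells. The scaled log2 signal of Mertk was -3.69 and -2.40 in undifferentiated, -1.74 and -2.41 in differentiated, and -0.56 and -1.46 in cabozantinib-treated PMOs. The cabozantinib arrays were the highest, and the undifferentiated and differentiated arrays touched. The log2 fold change was 0.97 (-0.41 to 2.35, adjusted p = 0.460) with differentiation, 1.06 (-0.32 to 2.44, adjusted p = 0.358) with cabozantinib relative to differentiated PMOs, and 2.03 (0.65 to 3.41, adjusted p = 0.0557) with cabozantinib relative to undifferentiated PMOs, and none passed the threshold. The last value passed the threshold in 6 of 19 alternatives and ranged from 0.997 to 3.07 when an array was left out. Tyro3 had scaled log2 signals of 2.44 and 1.15, 0.97 and 1.65, and 1.15 and 1.81 at its brighter probe in the same order of groups. The 3 groups overlapped, with log2 fold changes of -0.49 (adjusted p = 0.809) with differentiation and 0.17 (-1.18 to 1.52, adjusted p = 0.947) with cabozantinib. Its dimmer probe was well above background on 2 of the 6 arrays, 1 undifferentiated and 1 differentiated. It was at least 1.40-fold lower in cabozantinib-treated than in undifferentiated PMOs. The limma fit gave -2.24 (-3.44 to -1.04, adjusted p = 0.0264) there, from cabozantinib signals that were not well above background. The brighter probe gave -0.32 (-1.67 to 1.03, adjusted p = 0.779), so the intervals of the probes overlap. The median of the dimmest class of genes was -1.24 in this comparison.

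Macrophage markers stood beside the TAM receptors. Of 11 macrophage markers on the array, 9 were well above background in both undifferentiated samples and 10 in both samples of either other group, and C1qa in none. Their summed level, in multiples of the 75th percentile, was 32.2 to 53.8 in undifferentiated, 281 to 369 in differentiated and 273 to 314 in cabozantinib-treated PMOs. Axl was lowest in differentiated PMOs. The part of macrophages in the Axl, Tyro3 and Mertk values was not tested.

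RET, known from the enteric nervous system and kidney, was the other receptor that fell with differentiation. Its scaled log2 signal was -1.47 and -1.35 in undifferentiated, -3.20 and -3.79 in differentiated, and -4.43 and -4.20 in cabozantinib-treated PMOs. The groups did not overlap, and the undifferentiated arrays were apart from the other 4. Ret fell by 2.08 on the log2 scale with differentiation (interval -3.20 to -0.96, adjusted p = 0.0275), or 4.23-fold, and fell by 2.90 from undifferentiated to cabozantinib-treated PMOs (interval -4.02 to -1.78, adjusted p = 0.0080), or 7.47-fold. Differentiated and cabozantinib-treated PMOs differed by -0.82 (-1.94 to 0.30, adjusted p = 0.392), and by -0.16 after quantile normalization. The call with differentiation was lost without differentiated replicate 1 (0.0829) or 2 (0.422) or undifferentiated replicate 2 (0.0709), with no filter on dim probes (0.0758), the normexp correction (0.244) and the methods' t-test (0.856). That between undifferentiated and cabozantinib-treated PMOs was lost without cabozantinib replicate 1 (0.0874), with the normexp correction (0.0710) and with the methods' t-test (0.605). Of 6 markers of neural crest and glia, which can express Ret, 4 were well above background on both arrays of each group. The summed level of the 6 was 0.959 to 1.39, 3.90 to 7.44 and 3.35 to 4.43 times the 75th percentile in the order of the groups. The part of these cells in the Ret values was not tested.

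KIT and FLT3, receptors of blood cell progenitors, were near background. Kit was well above background on 1 undifferentiated and 1 differentiated array, with scaled log2 signals of -5.92 and -4.91, -4.01 and -7.58, and -6.68 and -6.71 in the 3 groups. The differentiated arrays spanned the values of all other arrays, and no difference passed the threshold (adjusted p of 0.373 to 0.934). Flt3 was well above background at its brighter probe on both differentiated arrays and on 1 array of each other group, with -5.17 and -5.41, -4.62 and -4.44, and -4.31 and -5.70. At its dimmer probe it was well above background only on the cabozantinib arrays (-4.56 and -4.73), which were above the 4 others (-6.14 to -5.27), at least 1.76-fold higher than in differentiated PMOs (adjusted p = 0.328). No Flt3 difference passed the threshold, and the direction relative to differentiated PMOs was opposite at its probes (-0.47 and 0.96). Tek was not well above background on any array and was not tested, with linear signals of 4.32 to 5.58 on the 4 arrays without the drug and 16.3 and 13.2 on the cabozantinib arrays. Of 7 mast cell markers on the array, Mcpt4, Tpsb2 and Gata2 were well above background on all 6 arrays, Cpa3 on 5, Cma1 on 1, and the receptor subunits Fcer1a and Ms4a2 on none. Their summed level was 0.503 to 0.761 in undifferentiated, 0.804 to 0.909 in differentiated and 0.619 to 0.752 times the 75th percentile in cabozantinib-treated PMOs. Of 6 dendritic markers, Itgax, Zbtb46 and Ccr7 were well above background on all 6 arrays, Clec9a on 4 and Xcr1 on none. Siglech had no value on either differentiated array and was well above background on the other 4. Its mean scaled log2 signal was 4.82 in undifferentiated and 5.25 in cabozantinib-treated PMOs. The summed level was 16.9 to 49.2, 14.4 to 14.8 and 44.6 to 57.2 in the order of the groups. The range for differentiated PMOs lacks Siglech, so it cannot be compared with the others. The part of these cells in the Kit and Flt3 values was not tested.

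**Figure D2:**
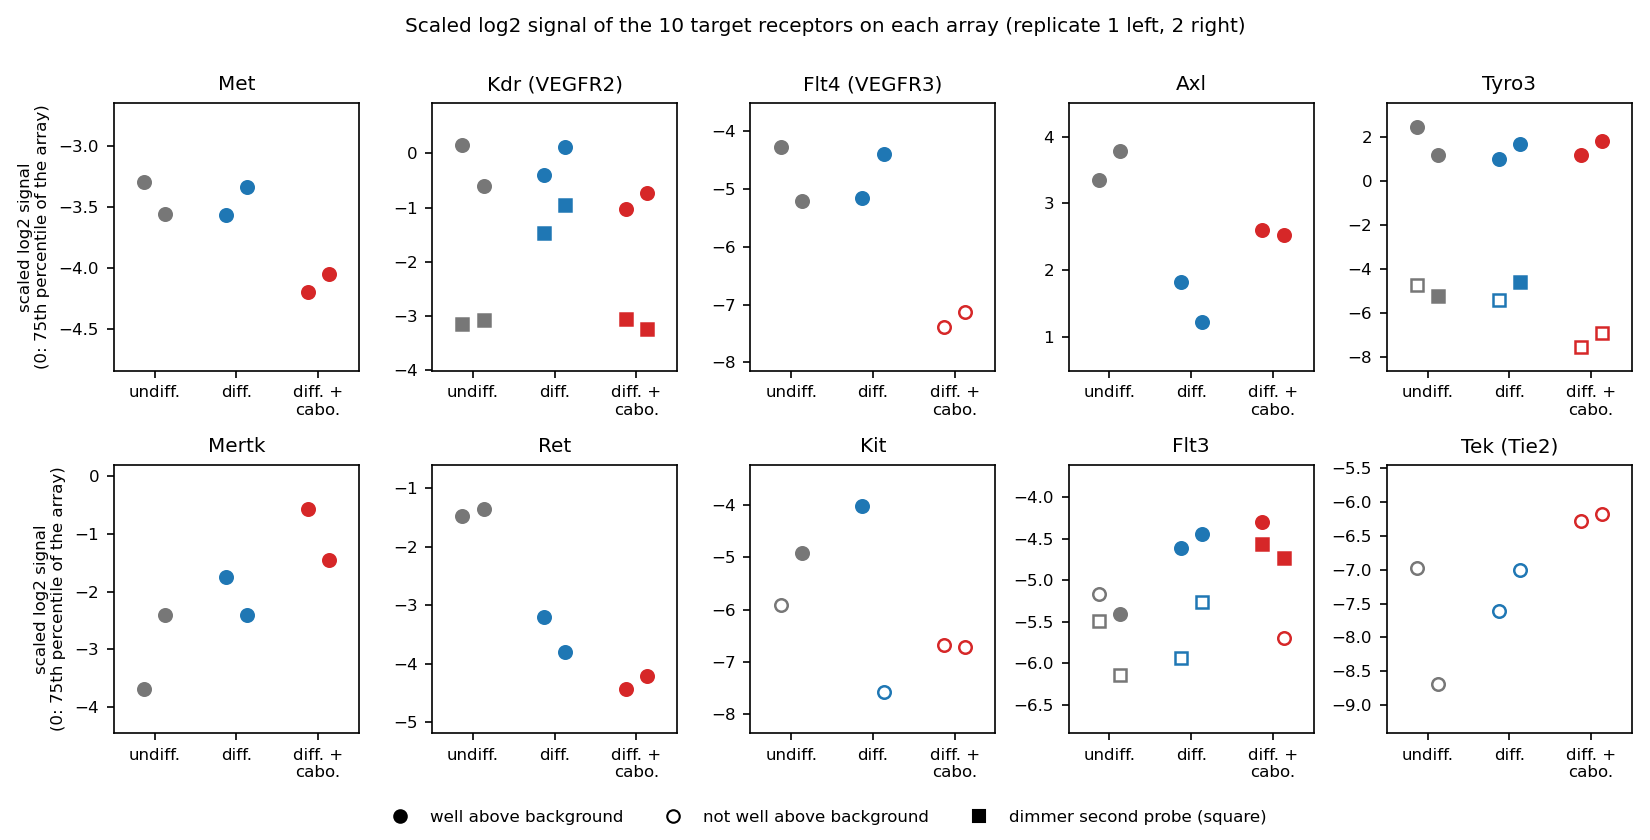
Scaled log2 signal (log2 signal minus the 75th percentile of the array) of the 10 receptors on each of the 6 arrays, replicate 1 left and 2 right in each group, for the brighter (circles) and the dimmer probe (squares). Filled symbols are well above background. Ret and Axl are highest in undifferentiated PMOs, Flt4 is above background only without cabozantinib, and Tek is open on every array.

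Over the 9 receptors that could be tested, at their brighter probes, 2 fell and 0 rose from undifferentiated to differentiated PMOs at an adjusted p under 0.05 in limma, beside 9.71% of 23083 genes called in either direction and 4.45% called lower. With cabozantinib relative to differentiated PMOs 1 was called, Flt4, lower, beside 2.67% of all genes, of which nearly all were lower (2.55%). Relative to undifferentiated PMOs 2 were called lower, Ret and Flt4, beside 13.4% of all genes (8.71% lower). By the criterion of the study, a change over 2-fold with an unadjusted p under 0.05, the counts were 2, 1 and 3 receptors, with Mertk as the addition and higher, beside 20.2%, 23.4% and 31.5% of all genes. The arrays of the compared groups did not overlap for 3, 6 and 7 of the 9 receptors, beside 45.3%, 57.6% and 63.3% of all genes. The median log2 fold change of the receptors was -0.04, -0.67 and -0.70, beside 0.11, -0.29 and -0.35 for all genes tested. With cabozantinib, Met, Kdr, Ret, Kit, Flt3 and Flt4 had negative values and Axl, Tyro3 and Mertk positive ones, and only that of Flt4 passed the threshold.

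**Figure D3:**
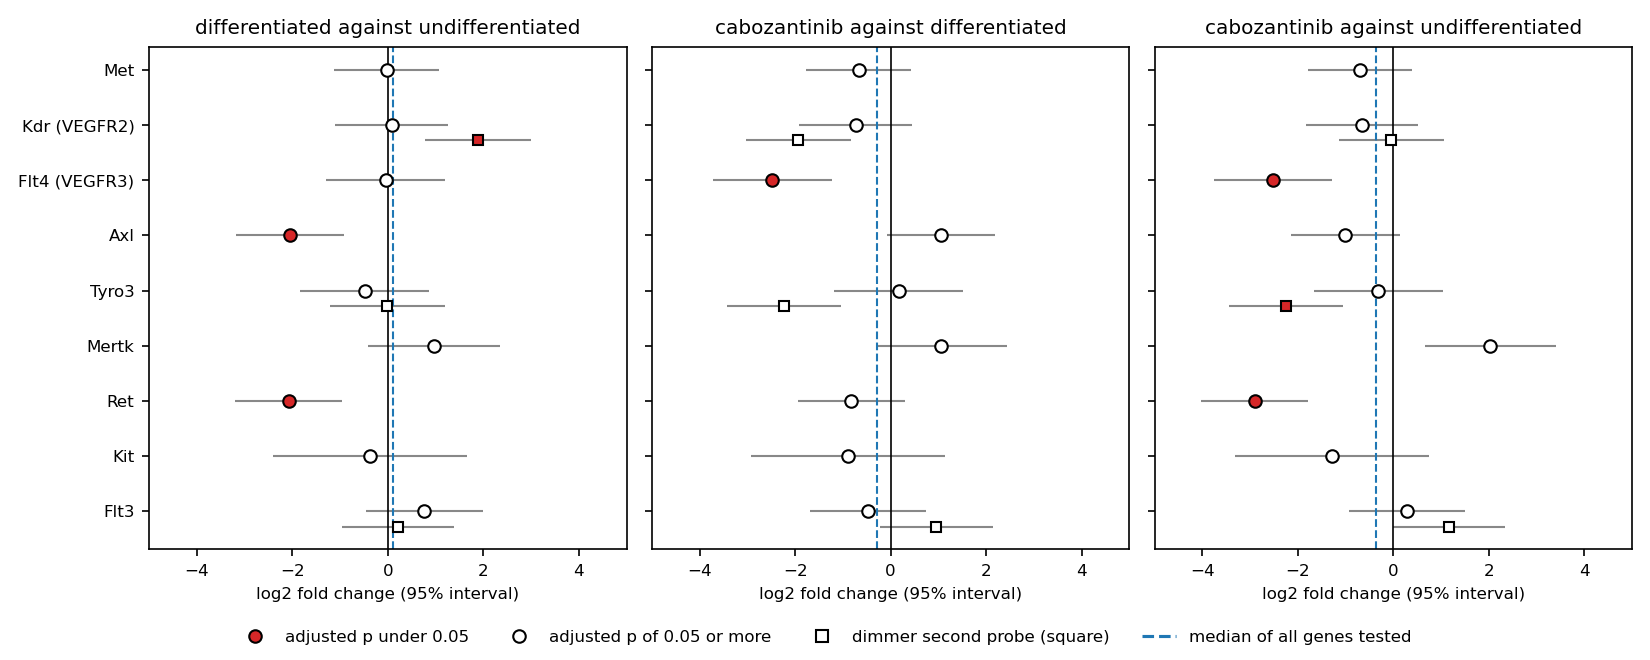
Log2 fold change of 9 receptors in the 3 comparisons from the limma fit on 6 arrays, with 95% intervals, for the brighter (circles) and the dimmer probe (squares), and the median of all genes tested (dashed). Filled symbols have an adjusted p under 0.05: Axl, Ret and the dimmer Kdr probe on the left, Flt4 in the middle, and Ret, Flt4 and the dimmer Tyro3 probe on the right. The fitted values of Flt4 and of the dimmer Tyro3 probe against cabozantinib rest on signals that were not well above background.

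The genes whose signal followed a receptor most closely over the 6 arrays were sought among 12892 genes well above background on all of them. For Axl they were Cct7, Ubald1 and Hsph1 (Pearson r of 0.998 to 0.999, and 0.995 to 0.999 after quantile normalization), for Ret Serpinb6d, Adat2 and Wdr4 (0.990 to 0.993, and 0.967 to 0.991), and for Mertk Zdhhc14, Aspn and Tox (0.980 to 0.984, and 0.990 to 0.995). For Kdr they were Rab37, Kcnd1 and 4930412O13Rik (0.996, and 0.889 to 0.994), for Tyro3 Selenon, BC052040 and Zfp622 (0.998, and 0.491 to 0.902), and for Met Il31ra, Odf3 and Gm2176 (0.998 to 0.999, and 0.42 to 0.65). The likeness of Met and Tyro3 thus depended on the scaling. These are the highest of 12892 correlations over 6 arrays each and are a description.

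The ligands and coreceptors of the same receptors were followed beside them. Of 17 ligands, 2 were higher and 1 lower in differentiated than in undifferentiated PMOs (beside 9.71% of all genes called), 3 were higher and 2 lower in cabozantinib-treated than in undifferentiated PMOs (beside 13.4%), and 0 passed the threshold with cabozantinib relative to differentiated PMOs (limma, 2 at an unadjusted p under 0.05). Their median log2 fold change was -0.13, -0.48 and -0.05 in the same order. Hgf, the ligand of MET, had scaled log2 signals of -3.18 and -2.26 in undifferentiated, -0.72 and -0.65 in differentiated, and -0.41 and -0.51 in cabozantinib-treated PMOs. The 2 groups kept in differentiation medium were both above the undifferentiated arrays, and Hgf was 2.03 ± 0.51 (SE) higher on the log2 scale in differentiated PMOs (adjusted p = 0.0330), while Met itself differed by -0.03. Gas6, the ligand of the TAM receptors, had 4.75 and 3.72, 6.40 and 7.23, and 6.63 and 6.90. It was 2.58 ± 0.57 higher in differentiated than in undifferentiated PMOs (adjusted p = 0.0188), where Axl was lower, and -0.05 with cabozantinib (adjusted p = 0.983). Protein S (Pros1), the other TAM ligand, did not pass the threshold (-0.80 with differentiation, adjusted p = 0.580).

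The RET ligand Gdnf moved in the same direction as Ret, and a coreceptor moved in the opposite one. Gdnf had scaled log2 signals of 1.26 and 1.03 in undifferentiated, -1.31 and -1.29 in differentiated, and -1.40 and -1.32 in cabozantinib-treated PMOs, and fell by 2.45 ± 0.48 with differentiation (adjusted p = 0.0111). Artn, another RET ligand, fell by 2.50 ± 0.49 from undifferentiated to cabozantinib-treated PMOs (adjusted p = 0.0130). Gfra3, the coreceptor that presents artemin (the product of Artn), had -2.05 and -2.82, 2.38 and 3.50, and 2.50 and 2.89, so that its undifferentiated arrays were far below the other 4. It rose by 5.38 ± 0.57 with differentiation (adjusted p = 0.000661) and differed by -0.24 with cabozantinib (adjusted p = 0.907). Of the named ligands and coreceptors, Gfra3 was the one whose calls were kept without any single array. The calls of Hgf, Gdnf, Gas6 and Nrp1 with differentiation were each lost without 1 or more of the arrays compared (differentiated replicate 2 in every case, adjusted p of 0.0813 to 0.263). The calls of the ligands between cabozantinib-treated and undifferentiated PMOs were lost without either cabozantinib array (0.0795 to 0.325), that of Gfra2 without cabozantinib replicate 2 (0.0715) and that of Gfra1 without any 1 of the 4 arrays compared (0.0563 to 0.475). With quantile normalization Nrp1 was not called with differentiation, nor were Angpt1 and Gfra1 between cabozantinib-treated and undifferentiated PMOs.

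Of 7 coreceptors tested, Gfra3 rose and Nrp1 (a coreceptor of VEGF receptors) fell with differentiation (beside 9.71% of all genes called), and 0 passed the threshold with cabozantinib relative to differentiated PMOs (2, Gfra1 and Nrp1, at an unadjusted p under 0.05). Nrp1 fell by 2.77 ± 0.74 on the log2 scale (adjusted p = 0.0422), and Nrp1 was 2.14 with cabozantinib relative to differentiated PMOs (adjusted p = 0.118). It was well above background on only 1 of the 2 differentiated arrays. Between cabozantinib-treated and undifferentiated PMOs 2 of the 7 coreceptors, Gfra2 and Gfra3, were called higher and 1, Gfra1, lower, beside 13.4% of all genes. Gfra2, the coreceptor for neurturin, was 3.34 ± 0.65 higher in cabozantinib-treated than in undifferentiated PMOs (adjusted p = 0.0127). Gfra1, the coreceptor for GDNF, was at least 2.997-fold lower (adjusted p = 0.0403). Vegfa had log2 fold changes of -0.56 with differentiation, -1.03 with cabozantinib and -1.60 between cabozantinib-treated and undifferentiated PMOs (adjusted p of 0.713, 0.309 and 0.0806). Kitl, the ligand of KIT, was not well above background with cabozantinib and was at least 3.82-fold lower than in differentiated PMOs, which did not pass the threshold (adjusted p = 0.0730). With cabozantinib relative to differentiated PMOs, Flt3l, the ligand of FLT3, was -0.54 (adjusted p = 0.656) and the TEK ligand Angpt1 0.25 (adjusted p = 0.879). Angpt1 was 1.94 ± 0.49 higher in cabozantinib-treated than in undifferentiated PMOs (adjusted p = 0.0308).

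**Figure D4:**
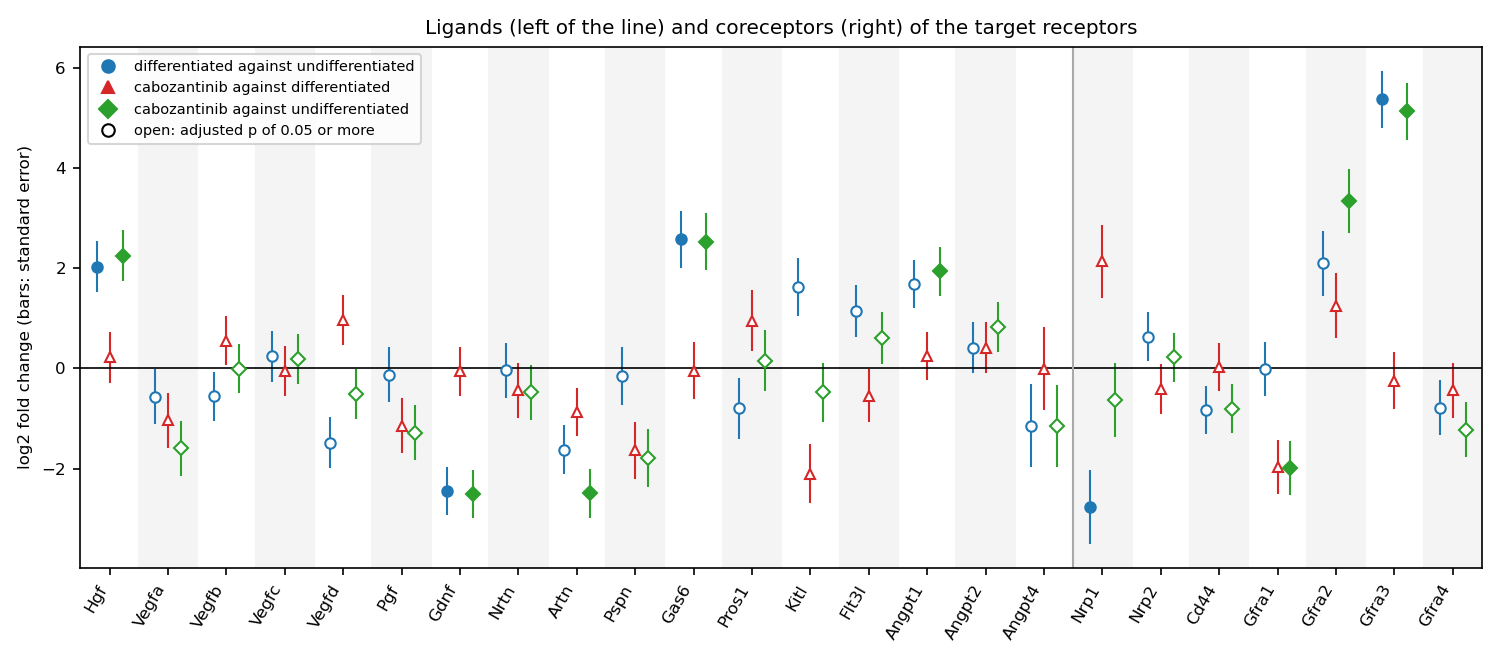
Log2 fold change (limma, 6 arrays) with its standard error for the 17 ligands and the 7 coreceptors tested, in the 3 comparisons. Filled symbols have an adjusted p under 0.05, and no triangle (cabozantinib against differentiated) is filled. The fitted values of Gfra1 and Kitl with cabozantinib and of Angpt4 in differentiated PMOs rest on signals that were not well above background.

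Among 37 other receptor tyrosine kinases tested, 5 rose and 0 fell with differentiation (beside 9.71% of all genes called in either direction), and 0 passed the threshold with cabozantinib relative to differentiated PMOs (3 at an unadjusted p under 0.05), where the median was -0.17. The 5 were Csf1r, the receptor of macrophage colony-stimulating factor (2.84 ± 0.62, adjusted p = 0.0183), Aatk (2.73 ± 0.48, adjusted p = 0.0067), the FGF receptor Fgfr4 (2.52), the neurotrophin receptor Ntrk3 (2.51) and the ephrin receptor Ephb1 (2.15). Csf1r is also a macrophage marker. Ntrk3 and Ephb1 were well above background on only 1 of the 2 undifferentiated arrays. Each of the 5 calls was lost without 1 or more of undifferentiated replicate 2, differentiated replicate 1 and differentiated replicate 2 (adjusted p of 0.0531 to 0.546), and those of Fgfr4 and Ntrk3 with quantile normalization. Between cabozantinib-treated and undifferentiated PMOs, Egfr, Csf1r, Fgfr4, Ntrk3 and Aatk were called higher (2.04 to 3.09) and Ntrk2, Epha2, Alk and Erbb2 lower, with log2 fold changes of -2.03, -1.93 and -1.70 for the first 3 and a bound of at least 3.63-fold for Erbb2, which was not well above background with cabozantinib. These calls stand beside 13.4% of all genes, and all 9 were lost without cabozantinib replicate 2 (0.0507 to 0.428), 7 of them also without cabozantinib replicate 1, and those of Fgfr4, Ntrk2, Epha2, Alk and Erbb2 with quantile normalization. With cabozantinib relative to differentiated PMOs the highest and lowest values were 1.75 for Epha4 (adjusted p = 0.206) and -1.24 for Insr (adjusted p = 0.270). Pdgfra, the neighbor of Kit and Kdr, had log2 fold changes of 1.31 and -0.81 (adjusted p of 0.190 and 0.447).

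Downstream of the receptors, 0 of 22 adaptors and kinases rose and 2 fell with differentiation, a share close to the 9.71% of all genes called. Hras, a RAS GTPase, fell by 4.72 ± 0.57 on the log2 scale (adjusted p = 0.0012). It was well above background on only 1 of the 2 differentiated arrays. On differentiated replicate 1 its scaled log2 signal of -6.06 lay below the lowest signal called well above background (-5.66). Pik3r1, the regulatory subunit of PI3K, was at least 4.69-fold lower (adjusted p = 0.0241), from its own dim signal, which lay above the lowest signal called well above background. Hras also fell by 3.43 ± 0.57 from undifferentiated to cabozantinib-treated PMOs. Of 15 negative regulators, 3 rose with differentiation and 1 fell, beside 9.71% of all genes called. The phosphatase Ptprj rose by 3.28 ± 0.54 on the log2 scale and the MAPK phosphatases Dusp6 and Dusp4 by 2.20 and 1.95. The phosphatase Ptpn1 fell by 3.07 ± 0.58 and was well above background on only 1 of the 2 differentiated arrays. Of these 6 calls, each was lost without undifferentiated replicate 2 (adjusted p of 0.0508 to 0.0975), those of Pik3r1, Dusp4 and Dusp6 also without either differentiated array (0.0726 to 0.390), that of Ptpn1 without undifferentiated replicate 1 (0.0585) or differentiated replicate 1 (0.0848) and that of Dusp4 without either cabozantinib array (0.0717), those of Hras, Ptprj and Ptpn1 with the probes of a gene averaged, and that of Pik3r1 with quantile normalization. In cabozantinib-treated relative to undifferentiated PMOs, 3 of the 15 negative regulators were called higher and 1 lower. Of the 22 adaptors and kinases, 1 was called lower (Hras), beside 13.4% of all genes called in either direction. Ptprj, Ptpn6 (SHP-1) and Dusp6 were 2.66, 2.21 and 1.99 higher in this comparison and Errfi1 fell by 1.81. The calls of Ptprj, Ptpn6, Dusp6 and Errfi1 were lost without cabozantinib replicate 1, and those of Ptpn6, Dusp6 and Errfi1 also without cabozantinib replicate 2. That of Ptprj was also lost without undifferentiated replicate 1 and that of Ptpn6 without undifferentiated replicate 2. That of Errfi1 was also lost without undifferentiated replicate 1 or either differentiated array. The call of Hras was lost without cabozantinib replicate 2 or undifferentiated replicate 1. Those of Hras and Ptprj were lost with the probes of a gene averaged, and those of Dusp6 and Errfi1 with quantile normalization. None of the adaptors, kinases or regulators passed the threshold with cabozantinib relative to differentiated PMOs (limma, 2 of 22 and 3 of 15 at an unadjusted p under 0.05), where Hras was 1.29 (adjusted p = 0.207), Plcg1 -1.59 (adjusted p = 0.102), Ptpn1 1.71 (adjusted p = 0.116) and Spry4 -1.83 (adjusted p = 0.0694). The medians of the lists in that comparison were 0.20 for the adaptors and kinases and -0.28 for the negative regulators, beside -0.29 for all genes.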

How the data were processed

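Arrays of 6 samples, 2 for each condition, were analyzed. The deposited intensities came from the scanner software Feature Extraction (version 11.0.1.1), and per the file headers each processed signal is background-subtracted and not scaled between arrays, while the signal and background medians of a spot are given uncorrected. The authors also deposited a table of log2 values for 30439 probes, whose steps are not given in the sources used here and whose medians are nearly equal on all 6 arrays (7.50 to 7.51).

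Probes were named through RefSeq accessions (69.1% of 39429 probes). Control and outlier spots were removed, log2 signals of a probe's spots were averaged, and each array's 75th percentile was subtracted. A probe was tested where 2 or more arrays called it well above background, which left 27230. The model, fitted to all 6 arrays with limma (3.58.1, R 4.3.3), held the condition and, because the study's methods name a paired test, the replicate number. Adjusted p values follow Benjamini and Hochberg over the probes tested. A gene was taken at its brightest probe. Intervals are 95%. Values with no array of a group well above background are given as bounds, set on each array by the lowest signal that the software called well above background or by the probe's own signal, whichever was higher. An adjusted p beside a bound is that of the fitted value and not of the bound. Tables were read with Python 3.11.15 and pandas 2.3.3, and the functions were tested on simulated data. The depth of an array is given by its share of spots well above background, and the number of arrays limits the precision.

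The receptors and the lists of ligands, coreceptors, other receptor kinases, adaptors, regulators and cell type markers were chosen with earlier results of these data known. Every receptor is named at each probe. Of each list the called genes are named, or the highest and lowest of those well above background on at least 1 array of each compared group, and the 3 genes most correlated with a receptor. The alternatives were quantile normalization, the authors' log2 values, a normexp correction (offset 50), other filters on dim probes, no replicate term, only the arrays compared, the mean of a gene's probes, the methods' t-test and each array left out. The files hold the median and not the mean signal of a spot, so normexp was run on the median.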

Additional observations from a re-analysis of the deposited data

How the results depend on the processing

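Counts are given for differentiated against undifferentiated, cabozantinib against differentiated and cabozantinib against undifferentiated PMOs in turn, first receptors called, then all genes called, then receptors past the study's criterion. As reported above they were 2, 1 and 2 receptors, 2242, 616 and 3091 genes, and 2, 1 and 3 receptors. With quantile normalization they were 1, 0 and 1, 2020, 0 and 1316 (with 1 receptor and 4027 genes at an unadjusted p under 0.05 in limma in the second comparison), and 2, 1 and 3. With the authors' log2 values they were 1, 0 and 1, 2038, 0 and 1300 (1 receptor and 4026 genes unadjusted in limma), and 2, 1 and 3. With normexp they were 0, 0 and 0 (2, 0 and 1 unadjusted in limma), 865, 3 and 578, and 2, 0 and 1. With no filter on dim probes they were 0, 0 and 1 (2, 1 and 4 unadjusted in limma), 1403, 0 and 1169 (5622 unadjusted in the second), and 2, 1 and 4. With a filter that kept a probe only if all 6 arrays called it well above background they were 2, 0 and 1 (0 unadjusted in the second in limma), 1857, 2 and 1350, and 2, 0 and 2. With probes of a gene averaged they were 2, 1 and 2, 2295, 1109 and 3407, and 2, 2 and 4. With no replicate block they were 2, 1 and 3, 3097, 2948 and 5572, and 2, 2 and 4. With only the arrays compared and the replicate block they were 1, 2 and 3, 2180, 5541 and 3216, and 2, 3 and 3. The methods' t-test, paired, gave 0 receptors and 0 genes after adjustment in each comparison (0, 2 and 1 receptors and 1290, 3849 and 1787 genes unadjusted) and 0, 0 and 1 receptors past the criterion. 3 alternatives were chosen after seeing the data. With the 75th percentile over all spots the counts were 2, 0 and 2 (1 unadjusted in the second in limma), 2178, 1 and 3050, and 2, 1 and 3, with the median of the spots 2, 1 and 2, 2242, 622 and 3111, and 2, 2 and 4, and with only the arrays compared and no block 2, 1 and 2, 2788, 4804 and 4509, and 2, 3 and 5. Without 1 array they were 0 to 2, 0 to 2 and 0 to 5 receptors, 1347 to 4399, 41 to 5541 and 693 to 8503 genes, and 0 to 4, 1 to 3 and 2 to 5 receptors. Past the study's criterion were 4672, 5400 and 7278 of all genes, against 2704, 542 and 2332 with normexp and 857, 2328 and 1252 with the paired t-test. The cause was not tested.

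The replicate numbers do not pair the undifferentiated arrays with those of the other groups, and the labels name no pairs. Deviations from the group means correlated by 0.43 between differentiated and cabozantinib arrays of the same number and by -0.66 and -0.71 between these and the undifferentiated arrays (20291 probes). With the undifferentiated numbers exchanged in the replicate block, chosen after seeing the data, 3, 3 and 4 receptors and 6029, 7064 and 10304 genes were called, and 2, 3 and 4 receptors passed the criterion. A fit with the slide as a block could not be made, since the slide and the drug coincide.

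Some receptors that did not pass the threshold changed direction. From undifferentiated to differentiated PMOs Met was 0.0628 with the median of the spots and 0.0435 with quantile normalization. With cabozantinib relative to differentiated PMOs Tyro3 was -1.03 with the mean of its probes, and Flt3 0.24 with that mean and 0.30 with quantile normalization or the authors' values. Flt3 was -0.31 with normexp against undifferentiated PMOs. Without 1 array the log2 fold change with differentiation was -0.26 to 0.20 for Met, -0.50 to 0.66 for Kdr, -1.47 to 0.50 for Tyro3, -0.0673 to 2.01 for Mertk, -2.41 to 1.65 for Kit and -0.77 to 0.68 for Flt4. With cabozantinib against differentiated PMOs it was -0.33 to 0.67 for Tyro3, -2.93 to 1.13 for Kit and -1.15 to 0.21 for Flt3, and against undifferentiated PMOs -1.30 to 0.67, -2.69 to 0.12 and -0.40 to 0.97. At their brighter probes, Axl, Ret and the other values kept their direction in every alternative run. Signal over background limits Kit, Flt3 and Flt4, which were near it, and Tek, which was not above it.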
